A study of Mus musculus with 12 samples.

Results

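The genes described here encode the cytosolic ribosomal proteins, measured in mouse tongue tumours and in normal tongue. They were taken by symbol, as the probes named Rpl, Rps or Rplp with a number and at most 1 further letter, together with Rpsa and without the S6 kinases. The rule gave 57 core genes, and 6 paralogs (Rpl3l, Rpl22l1, Rpl7l1, Rpl36al, Rps27l and Rpl39l) were read beside their partners. These 63 genes lay on 81 of the array's 25697 probes, among 16593 genes with a probe. RNA was measured on Illumina bead arrays, 1 array per piece of tissue. The 7 tumours came from B6 mice that received 4NQO (4-nitroquinoline 1-oxide, a carcinogen that forms DNA adducts) at 200 µg/mL and arecoline (an alkaloid of the areca nut) at 500 µg/mL. The 5 normal tongues came from B6 control mice that received DMSO. Exposure to carcinogens or to DMSO lasted 8 weeks, both groups then rested for 20 weeks, and the stated age is 8 months for both. The labels do not say that the pieces of a group came from separate animals, and p-values here set a difference only against the piece-to-piece spread, which may in part be technical.

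Each ribosome joins a small 40S subunit, which reads the mRNA, to a large 60S subunit, which forms the peptide bond, and every subunit carries ribosomal proteins around a core of ribosomal RNA. Most of these proteins are needed in equal numbers and are made in all cells, from mRNAs that begin with a run of pyrimidines (the 5′ terminal oligopyrimidine, or TOP, motif) through which mTOR signalling controls their translation. A few genes have paralogs with narrower expression, of which Rpl3l is made in skeletal and cardiac muscle in place of Rpl3.

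The longest pyrimidine run within 30 bases of the start is shown for the 3 genes with the steadiest rise and for Rpl22, the core gene that fell. Both paralogs whose change departed from that of their partner are shown too. The lines give 30 bases before and 30 bases after the annotated transcript start, 5′ to 3′ on the gene's own strand, from RefSeq on GRCm38.p6, with the longest pyrimidine run in capitals.
Rps6: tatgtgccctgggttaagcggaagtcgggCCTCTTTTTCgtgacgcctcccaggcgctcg
Rpl13a: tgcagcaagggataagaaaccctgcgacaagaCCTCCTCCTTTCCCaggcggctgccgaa
Rpl7a: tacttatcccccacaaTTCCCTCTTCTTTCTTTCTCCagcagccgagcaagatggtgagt
Rpl22: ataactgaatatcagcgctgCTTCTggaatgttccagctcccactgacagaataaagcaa
Rpl22l1: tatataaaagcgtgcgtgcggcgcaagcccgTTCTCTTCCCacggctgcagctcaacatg
Rpl3l: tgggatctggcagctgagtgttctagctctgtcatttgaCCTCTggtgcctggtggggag
The windows lie at chr4:86857338-86857397 on the minus strand for Rps6, chr7:45128716-45128775 on the minus strand for Rpl13a and chr2:26910777-26910836 on the plus strand for Rpl7a. Those of Rpl22 (chr4:152324406-152324465), Rpl22l1 (chr3:28805478-28805537) and Rpl3l (chr17:24727796-24727855) are on the plus strand, and the windows of Rpl22 and Rpl3l are the first of 2 listed for each gene. The longest run had 10, 14 and 21 bases in Rps6, Rpl13a and Rpl7a, 5 in Rpl22, 10 in Rpl22l1 and 5 in Rpl3l. That of Rpl22 lies wholly before the annotated start, and whether a run is the TOP tract of its mRNA was not tested. A run of at least 8 pyrimidines lay within 30 bases of the start in 27 of 57 promoter windows of 48 core genes (47.4%), and in 22.9% of all 32851 windows. In the full window of 250 bases before to 50 after the start, the ETS-type motif CCGGAAG, read on both strands, was present in 20 core windows (35.1%) and in 8.86% of all windows. The YY1 motif AAGATGGC, also read on both strands, was present in 7 core windows (12.3%) and in 2.75% of all windows. Among core genes with a change measured, the 23 with a run of at least 8 had a median log2 change of 0.28 in tumours and the 21 without had 0.29.

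Most core genes were modestly higher in the tumours after quantile scaling of the arrays, and none changed as much as 2-fold in either direction on its brightest probe. Of the 57 core genes, 52 passed the filter on dim probes, and Rpl6, Rpl14, Rpl17, Rplp2 and Rps23 did not, nor did the paralog Rpl39l. In limma with Benjamini-Hochberg adjustment, where 56.1% of all genes were called in either direction, 36 of the 52 were called higher, beside 32.5% of all 10781 genes tested, 1 was called lower, beside 23.6%, and 15 were not called. The tumours lay without overlap above or below the normals for 22 of the 52, beside 37.9% of all genes. The median log2 change was 0.29 over the core genes and 0.07 over all genes tested, and the middle 50% of core genes lay between 0.12 and 0.42. Both subunits took part: 15 of 21 genes of the 40S subunit were called higher and none lower (median 0.28), and 21 of 31 genes of the 60S subunit and its stalk were called higher and 1 lower (median 0.31).

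**Figure D1:**
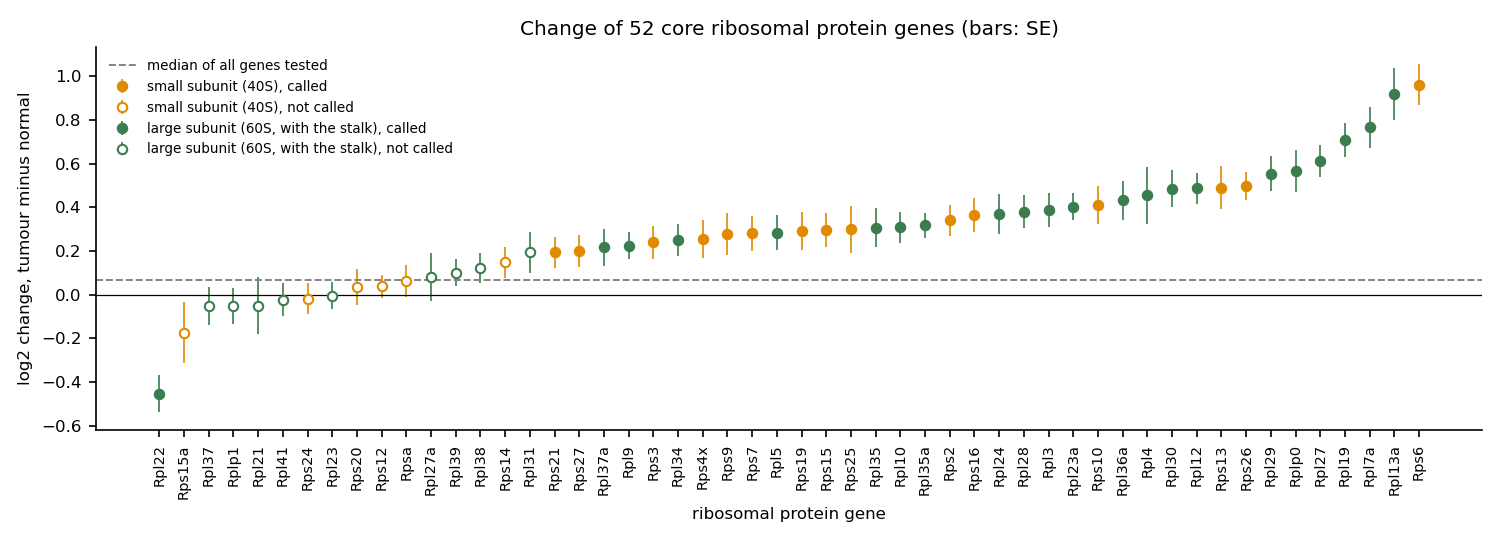
Change of the 52 measured core ribosomal protein genes, in log2 units as tumour minus normal, ordered by size, with bars of 1 standard error; filled points passed the limma threshold, orange marks the 40S subunit and green the 60S subunit with its stalk. The values run from -0.45 for Rpl22 to 0.96 for Rps6 around a median of 0.29, above the dashed median of all genes at 0.07; these are changes after quantile scaling, and the sign of many of them depends on that choice.

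The mean log2 signal of the 52 core genes ran from 13.50 to 13.61 in the 7 tumours (13.55 ± 0.04, SD), against 13.14, 13.32, 13.24, 13.30 and 13.31 in the 5 normals (13.26 ± 0.08, SD). Every tumour lay above every normal, and normal 1 was the lowest array. Normal 1 also stood apart for 6 salivary gland markers, whose mean log2 signal was 6.43 to 9.22 in tumours (highest in tumour 2), against 12.76 in normal 1 and 6.88 to 7.92 in the other normals. Without tumour 2 and normal 1, 29 core genes were called higher and 1 lower (median 0.24). The share of all genes called without these arrays is not given here, so this count has no background beside it. The difference between the mean of the 40S genes and that of the 60S genes was 0.30 ± 0.05 in tumours and 0.34 ± 0.03 in normals (SD, n = 7 and 5), and these ranges overlapped. The median SD of core genes was 0.13 between tumours and 0.12 between normals, beside 0.21 and 0.12 for all genes. At a mean log2 signal of at least 14 it was 0.11 between tumours and 0.13 between normals for core genes, and 0.20 and 0.12 for other genes, and whether probes this bright respond in proportion to RNA was not tested.

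The tissue makeup moved with the groups. Of 18 measured skeletal muscle markers, 15 were lower in tumours, and their summed linear signal was 10481 to 204834 in tumours against 333195 to 356523 in normals. Of 15 squamous epithelium markers, 11 were higher and 3 lower, with a summed signal of 175175 to 219484 in tumours against 147852 to 161930 in normals. All 5 measured neutrophil markers were higher, with a summed signal of 45823 to 60931 in tumours against 556 to 2032 in normals. Their log2 changes were unequal, at 7.39 for S100a9, 6.55 for S100a8, 3.30 for Il1b, 1.00 for Cxcr2 and 0.99 for Csf3r. Under reference-gene centring 3 of these 5 were called higher, and Cxcr2 and Csf3r were not. Of 5 T cell markers, 3 were higher and none lower. Of 6 endothelial markers, 5 were lower, and of 7 fibroblast markers, 4 were lower and 1 higher. Of 8 macrophage and monocyte markers, 1 was higher and 2, Cd163 (-2.93) and Mrc1 (-1.71), were lower without overlap. The part of these shifts in the ribosomal protein changes was not tested, and in pieces of whole tissue fewer cells of a type and less RNA per cell cannot be told apart.

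The sign of the family-wide change depended on how the arrays were put on a common scale. Arrays at their deposited common median gave 26 core genes higher, beside 34.4% of all genes, and 1 lower, beside 21.9% (median 0.23). Centring on the 75th percentile gave 16 of 52 higher (30.8%), near the 30.1% of all genes, and 1 lower, beside 24.3% (median 0.17). Cyclic loess, which evens out differences that follow brightness, gave 9 higher, beside 24.5% of all genes, and 4 lower, beside 28.5%, with a median of -0.01 over the core genes and -0.01 over all genes. The share of higher calls among all calls was then 46.3%, beside 58.0% after quantile scaling. Centring on 9 reference genes gave 3 higher, beside 9.04% of all genes, and 35 of 52 lower (67.3%), near the 63.3% of all genes, with a median of -0.32, where the median of all genes was -0.45 and 12.5% of calls were higher. This centring lies 0.49 below 75th-percentile centring for every gene, so a sign that turns under it follows from that common shift. The core median lay 0.14 above the median of all genes under both, 0.22 above it after quantile scaling and 0.0046 above it under cyclic loess. The reference genes were themselves unequal: after quantile scaling 6 of the 9 were higher in tumours, with a median of 0.54, and Gapdh was lower (-0.24). The family mean did not overlap between groups under quantile scaling or 75th-percentile centring, and overlapped under the deposited scale, cyclic loess and reference-gene centring.

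**Figure D2:**
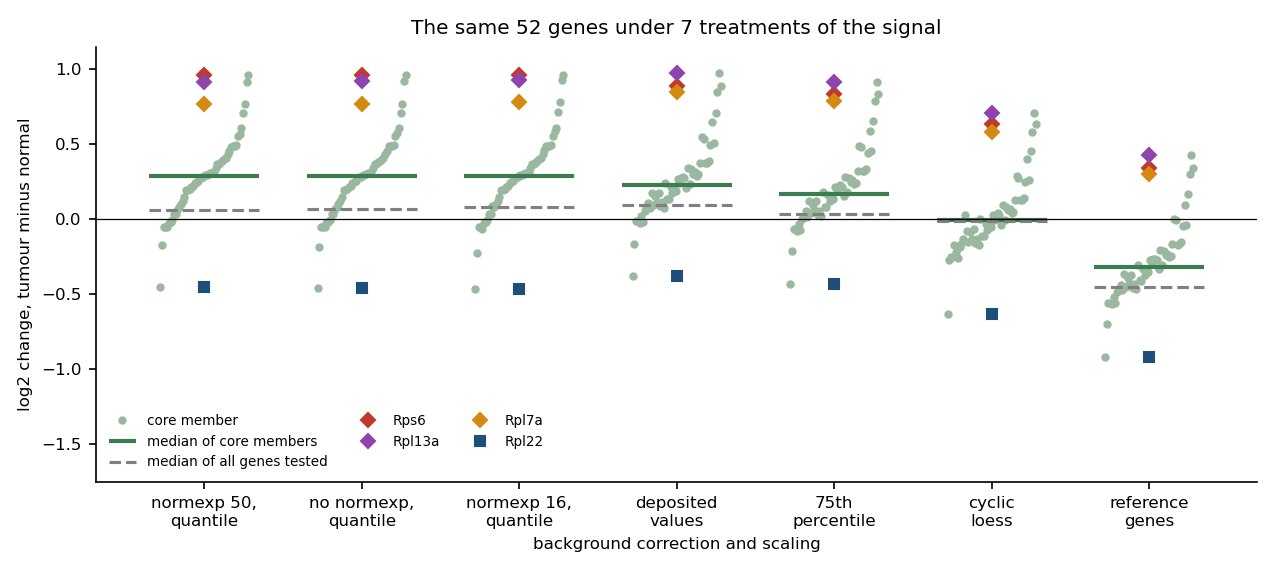
Log2 change, tumour minus normal, of the same 52 core genes (small points) under 7 treatments of the signal, with the medians of the core genes (solid) and of all genes tested (dashed). The core median moves from 0.29 after quantile scaling to -0.01 under cyclic loess and -0.32 under reference-gene centring, while Rps6, Rpl13a and Rpl7a (diamonds) stay above 0 and Rpl22 (squares) below 0 in each of the 7.

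Some genes kept their call under every scaling. Rps6, Rpl13a and Rpl7a were called higher, and Rpl22 lower, under all 7 treatments of the signal. These treatments are not separate checks. Those with quantile scaling differ only in background correction, and reference-gene centring is 75th-percentile centring with a common shift. The share of all genes called under all 7 was not counted. Reference-gene centring alone gave 3 of 52 core genes higher (5.77%), beside 9.04% of all genes. Rpl19, Rplp0 and Rpl4 were positive in all 7 but missed the threshold under reference-gene centring, and Rpl4 did so under cyclic loess too. On their brightest probes, Rpl21, Rpl37, Rplp1, Rps15a and Rps24 were negative in all 7, with no call after quantile scaling.

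Rps6, the 40S protein that S6 kinase phosphorylates downstream of mTOR (probe ILMN_2893077, gene on chromosome 4), had the largest rise. Its log2 signal was 13.84 at the lowest, 14.17 at the median and 14.35 at the highest in tumours, against 12.98, 13.30, 13.13, 13.18 and 13.21 in normals. The groups did not overlap, and even the lowest tumour, tumour 6, lay above the highest normal. The change was 0.96 (SE 0.09), or 1.95-fold, with an adjusted p of 2.23e-06, and it was 0.64 under cyclic loess and 0.34 under reference-gene centring.

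Rpl13a, a 60S protein often used as a reference gene (probe ILMN_2707834, chromosome 7), followed. It read 11.58, 11.83 and 12.25 at the lowest, median and highest tumour, against 10.86, 11.12, 10.95, 11.02 and 11.09 in normals. All 7 tumours were above all 5 normals, by a log2 change of 0.92 (SE 0.12), or 1.89-fold (adjusted p = 2.83e-05). The change was 0.71 under cyclic loess and 0.43 under reference-gene centring.

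Rpl7a, a 60S protein whose gene carries small nucleolar RNAs in its introns (probe ILMN_2819841, chromosome 2), read 11.18, 11.41 and 11.67 at the lowest, median and highest tumour, against 10.77, 10.60, 10.62, 10.55 and 10.61 in normals. The groups did not overlap, and normal 1 was the highest normal. The change was 0.77 (SE 0.09), or 1.70-fold (adjusted p = 1.77e-05), and it was 0.30 under reference-gene centring. Rpl19, a 60S protein (probe ILMN_2869225, chromosome 11), read 12.41, 12.64 and 12.81 at the lowest, median and highest tumour, against 11.78, 12.01, 11.91, 11.92 and 12.03 in normals. It was 1.63-fold higher in tumours without overlap (log2 0.71, SE 0.08, adjusted p = 5.90e-06).

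**Figure D3:**
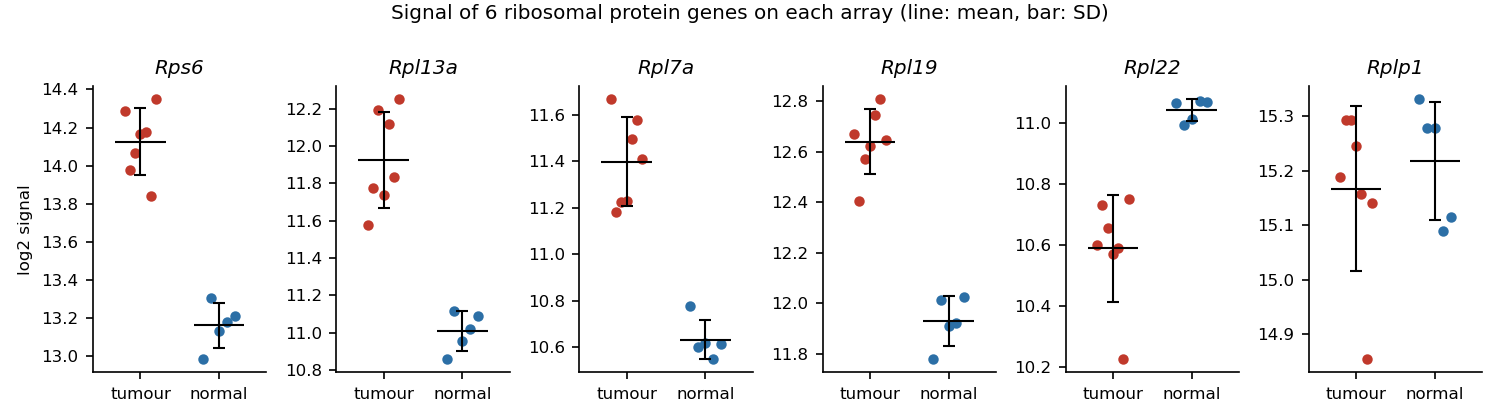
Log2 signal of Rps6, Rpl13a, Rpl7a, Rpl19, Rpl22 and Rplp1 on each array after quantile scaling, tumours (n = 7) left of normals (n = 5), with the mean as a line and the SD as a bar. The first 4 genes separate with all tumours above all normals, Rpl22 separates with all tumours below, and Rplp1 overlaps; the panels have separate axes.

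Further rises of about 1.4- to 1.5-fold were found in both subunits. In the 60S subunit, Rpl27 changed by 0.61 (SE 0.07), or 1.53-fold, with tumours at 14.21, 14.30 and 14.40 (lowest, median, highest) against normals at 13.41, 13.80, 13.74, 13.73 and 13.76, and normal 1 stood below the other normals. Rpl29 changed by 0.55 (SE 0.08) and Rpl12, which binds the base of the stalk, by 0.49 (SE 0.07). In the 40S subunit, Rps26, which lies by the mRNA exit channel, changed by 0.50 (SE 0.07) and Rps13 by 0.49 (SE 0.10). None of these 5 genes overlapped between the groups after quantile scaling, and under reference-gene centring they lay between -0.17 and -0.04, above the median of all genes (-0.45).

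In the stalk of the 60S subunit, on which elongation factors dock, Rplp0 was called higher and Rplp1 was not called. Rplp0, the protein that anchors the stalk (probe ILMN_2744356, chromosome 5), read 9.77, 10.06 and 10.37 at the lowest, median and highest tumour, against 9.31, 9.50, 9.44, 9.64 and 9.51 in normals. It was 1.48-fold higher in tumours without overlap (log2 0.57, SE 0.09, adjusted p = 2.22e-04). Rplp1, an acidic protein of the stalk, read 14.85, 15.19 and 15.29 at the lowest, median and highest tumour, against 15.33, 15.28, 15.28, 15.09 and 15.12 in normals. Its groups overlapped and its change of -0.05 (SE 0.08) was not called, while Rplp2, its partner in the dimer, was not well above background on any array. The mean log2 signal was 9.81 for Rplp0 and 15.19 for Rplp1. Of the 8 core genes at 15 or more, 1 was called higher (median change 0.02). Rplp0 and Rplp1 were not tested against each other.

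Of the proteins with known roles outside the ribosome, Rpl5, which binds the p53 regulator Mdm2 together with Rpl11 and 5S ribosomal RNA, changed by 0.28 (SE 0.08, adjusted p = 0.00864), and turned negative under cyclic loess (-0.05) and reference-gene centring (-0.35). Its tumours read 14.20, 14.33 and 14.58 at the lowest, median and highest, against normals at 14.02, 13.86, 14.02, 14.11 and 14.20, so the ranges overlapped. Rpsa, the 40S protein also known as a laminin receptor, changed by 0.06 (SE 0.08) and was not called, on a dim probe with tumours at 6.75 to 7.14 and normals at 6.73 to 6.94. Rpl11, Rpl7, Rpl26, Rpl10l, Rpl26l1, Rps4l and Rps4y2 were not analysed here. Fau, whose ubiquitin-like fusion yields the 40S protein eS30, was 0.56 higher (SE 0.10, adjusted p = 3.99e-04), with tumours at 13.77, 14.15 and 14.27 (lowest, median, highest) and normals at 13.25 to 13.72, and was -0.10 under reference-gene centring. Rps3a1, which encodes a 40S protein but falls outside the symbol rule, changed by 0.31 (SE 0.14) and was not called (adjusted p = 0.0825).

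Rpl22 was the core gene that fell. It encodes a 60S protein that binds RNA, is dispensable for ribosome assembly and is known for its part in T cell development in mice. Its log2 signal (probe ILMN_2659229, chromosome 4) was 10.22, 10.60 and 10.75 at the lowest, median and highest tumour, against 11.07, 10.99, 11.01, 11.07 and 11.07 in normals. Every tumour lay below every normal, and tumour 6 lay below the other tumours. The change was -0.45 (SE 0.08), or 1.37-fold lower, with an adjusted p of 5.41e-04, and it ranged from -0.92 under reference-gene centring to -0.38 on the deposited scale. Leaving out each array in turn gave -0.48 to -0.39.

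Because the sign of the family-wide change hung on the scaling, each array was also centred on the median of its own core genes, a choice made after seeing the data. Against the family, 9 core genes were above, where 13.0% of 15694 probes were called higher, 13 were below, where 49.7% of probes were called lower, and 30 were not called. Those above were Rps6 (0.63), Rpl13a (0.59), Rpl7a (0.44), Rpl19 (0.38), Rpl27 (0.28), Rplp0 (0.24), Rpl29 (0.22), Rps26 (0.17) and Rpl12 (0.16). Those furthest below were Rpl22 (-0.78), Rps15a (-0.50), Rpl37, Rplp1 and Rpl21 (each -0.38). Rps15a and Rpl21 had dim probes, with mean log2 signals of 7.45 and 7.75, and Rpl37 and Rplp1 had bright ones, of 15.01 and 15.19. A second Rpl21 probe of similar brightness (7.67) changed by 0.13 after quantile scaling, against -0.05 on the brightest, and neither was called.

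The change of the core genes differed between classes of brightness. Member probes made up 30 of the 100 brightest probes on the array and 39 of the 200 brightest. Of the 8 core genes with a mean log2 signal of at least 15, only Rpl9 was called higher, and the median change of the 8 was 0.02. Among 4 other genes this bright, 1 was called higher (median -0.11). The brightest deposited value of an array was 15.06 to 15.53. Core genes at 12 to under 14 were called higher in 11 of 11 cases (median 0.41), beside 47.9% of other genes. Those under 12 were called higher in 5 of 10 cases, with 1 lower (median 0.27), beside 31.6% of other genes higher and 23.5% lower. Other genes had medians of 0.23 at 14 or more and 0.24 at 12 to under 14, beside 0.24 for core genes at 14 or more. Over the 52 core genes, which share arrays and scaling, the correlation of change with mean signal was r = 0.02 and rho = -0.38. The smallest changes among genes not called were those of the bright probes of Rpl23 (-0.01), Rps24 (-0.02), Rpl41 (-0.02) and Rps20 (0.04), and whether probes this bright still respond in proportion to RNA was not tested.

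**Figure D4:**
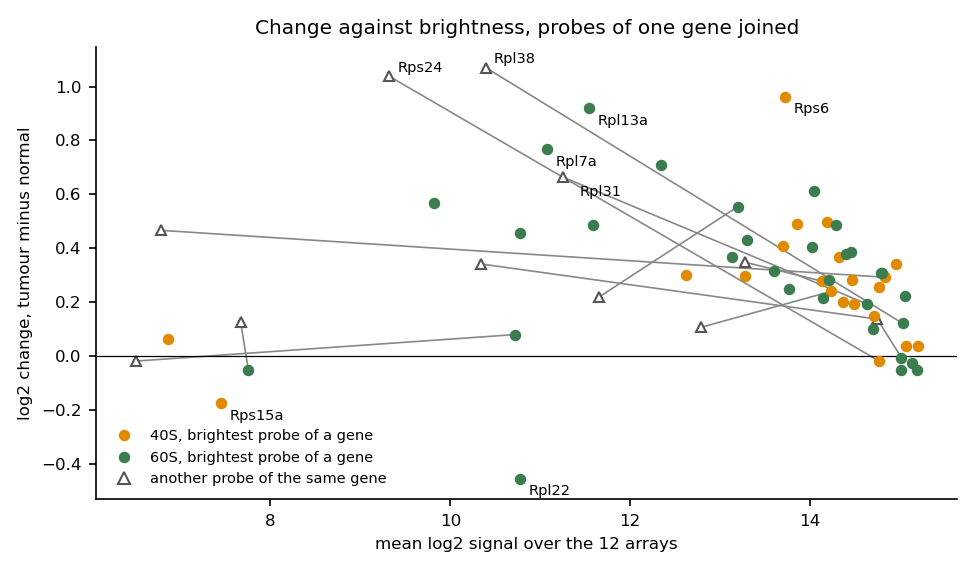
Log2 change, tumour minus normal after quantile scaling, against mean log2 signal over the 12 arrays, for the brightest probe of each core gene (filled) and for its further probes (open triangles), with probes of 1 gene joined. Changes are near 0 at the bright end, and the dimmer probes of Rps24 and Rpl38 lie at 1.04 and 1.07 while their bright probes lie at -0.02 and 0.12.

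Genes with several probes showed how far a value rests on the probe. Of 11 ribosomal protein genes with at least 2 probes above background, 7 had a dimmer probe that changed more upward than the brightest, and in 7 the probes differed in call. The second probe of Rps24, a 40S protein, read 9.40 to 10.05 in tumours against 8.45 to 8.85 in normals, a change of 1.04 (SE 0.12, adjusted p = 1.31e-05), where the brightest probe had -0.02. Rpl38, a 60S protein, had 1.07 on its dimmer probe (SE 0.15) against 0.12 on the brightest, and Rpl31 had 0.66 against 0.19. The reverse held for Rpl29, with 0.55 on its brightest probe and 0.22 on the other, and for Rps3 (0.24 and 0.11). With the mean over probes, Rps24 was higher by 0.51 and Rpl23 by 0.16, both past the threshold. Ribosomal protein genes have many near-identical pseudogene copies, and which transcripts each probe binds was not tested.

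Among the paralogs, Rpl3l, the form of Rpl3 made in striated muscle (probe ILMN_2649810, chromosome 17), was far lower in tumours. It read 9.29, 12.48, 8.34, 10.84, 7.54, 7.94 and 6.85 in tumours 1 to 7, against 14.54, 14.04, 14.35, 14.21 and 14.07 in normals, with no overlap. The change was -5.20 (SE 0.81), or 36.8-fold lower, with an adjusted p of 1.27e-04. Rpl3, which forms part of the peptidyl transferase region in other tissues, was 0.39 higher (SE 0.08, adjusted p = 9.98e-04), with tumours at 14.28, 14.65 and 14.73 (lowest, median, highest) against normals at 14.12 to 14.30, and was -0.23 under reference-gene centring. Within arrays, the log2 difference of Rpl3l from Rpl3 changed by -5.59 in tumours relative to normals (SE 0.79), a 48.1-fold shift of the ratio, below all normals in 7 of 7 tumours (exact permutation p = 0.00253, adjusted over 4 pairs 0.0101). The smallest p that the 792 splits of 7 against 5 arrays allow is 0.00253.

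The muscle markers ordered the tumours nearly as Rpl3l did. Their mean log2 signal was 9.90, 11.88, 9.32, 10.68, 8.48, 8.81 and 8.67 in tumours 1 to 7, against 12.75 to 12.99 in normals, so tumours 2 and 4, highest for Rpl3l, were also highest for the markers. Eef1a2, the elongation factor of muscle and nerve, read 9.37, 11.96, 8.74, 10.19, 7.82, 7.99 and 8.07 in the same tumours, against 13.48 to 13.93 in normals. The part of the lost muscle signal in the fall of Rpl3l was not tested.

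Rpl22l1, which in mice is repressed by Rpl22 and can take its place in the ribosome, was not called by limma, on a dim probe. It read 7.37, 7.76 and 8.25 at the lowest, median and highest tumour, against 7.67, 7.62, 7.79, 7.60 and 7.73 in normals, a change of 0.07 (SE 0.15, adjusted p = 0.728), and its spread between tumours (SD 0.34) was larger than between normals (SD 0.08). Within arrays its difference from Rpl22 was 0.52 higher in tumours (SE 0.18), a 1.43-fold shift of the ratio (exact permutation p = 0.0126, adjusted 0.0253). The ranges overlapped, with 5 of 7 tumours above all normals, and tumour 6 was highest, where Rpl22 was lowest. Rpl22 is subtracted in this difference, so its own change of -0.45 enters the shift, and a low Rpl22 raises the value of its array. Release of Rpl22l1 from repression was not tested. The adjusted exact p was 0.0606 without normal 1 (shift 0.51) and without normal 4 (shift 0.49), and 0.0657 with a smaller background offset (shift 0.53).

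For the remaining pairs no shift of the ratio passed the test. Rpl36al, which encodes a near copy of the 60S protein Rpl36a, was 0.51 higher (SE 0.06, adjusted p = 2.23e-05) and Rpl36a 0.43 higher (SE 0.09, adjusted p = 0.00105), both without overlap and both negative under reference-gene centring (-0.14 and -0.17). The shift of their ratio was 0.08 (SE 0.12, exact permutation p = 0.528, adjusted 0.704). Rps27l, a p53-responsive paralog in human cells, changed by 0.21 (SE 0.10, adjusted p = 0.0990) and Rps27 by 0.20 (SE 0.07, adjusted p = 0.0316), and their ratio shifted by 0.005 (SE 0.12, adjusted exact p = 0.985). The call of Rps27 was lost without any of tumours 1, 2, 3 and 7 or normals 1, 2, 3 and 5, at changes of 0.18 to 0.21. That of Rps27l was gained without tumour 7 (0.25). Rpl7l1 was 0.50 higher on its brighter probe (SE 0.10) and 0.17 on the other, which was not called.

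**Figure D5:**
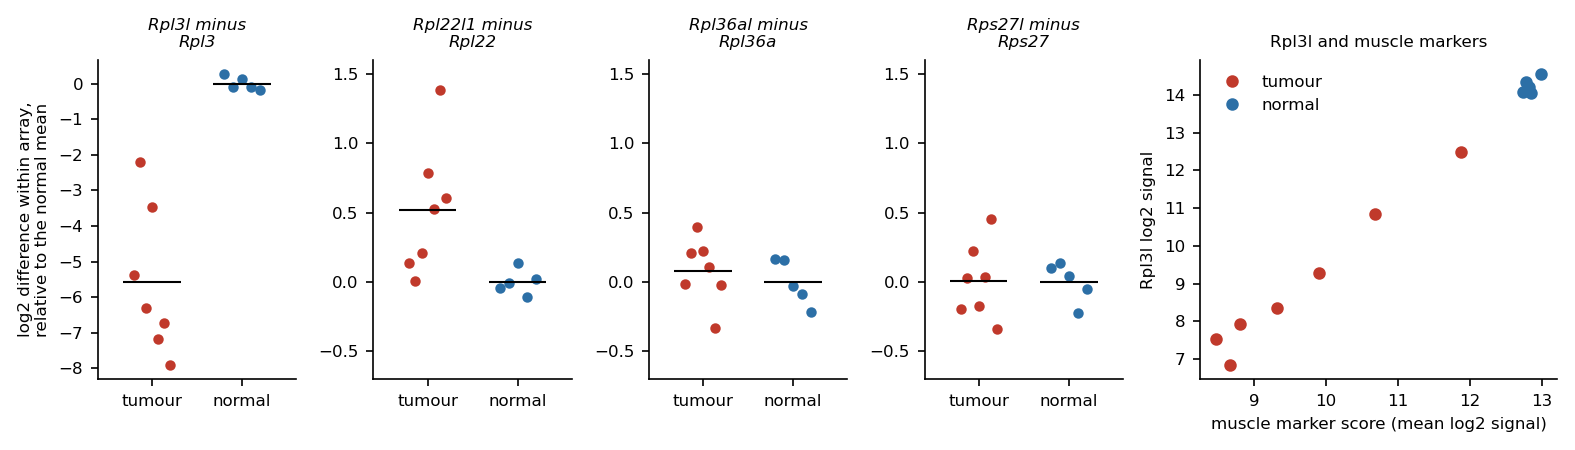
Left, the log2 difference between each paralog and its partner on each array, set to 0 at the mean of the normals, tumours left of normals, with lines at group means. The Rpl3l panel shows tumours between -2.20 and -7.89 and has its own axis, 5 of 7 tumours lie above all normals for Rpl22l1, and the other pairs overlap; the right panel sets the log2 signal of Rpl3l against the mean log2 signal of 18 muscle markers for the 7 tumours and 5 normals.

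The wider machinery that makes and uses ribosomes was read from lists of 123 measured genes. After quantile scaling 75 of them were called higher (61.0%) and 10 lower (8.13%), with a median of 0.37. Under that scaling 32.5% of all genes were higher and 23.6% lower, with a median of 0.07, and these shares stand beside each list count below. Of 51 ribosome assembly factors, 40 were called higher (78.4%) and none lower (median 0.52). Cyclic loess gave 30 higher and none lower, where 24.5% of all genes were higher and 28.5% lower. Under reference-gene centring 11 of the 51 were higher, beside 9.04% of all genes, and 10 lower, beside 63.3%. Eif6, which keeps the 60S subunit from joining before it is mature, read 13.04, 13.63 and 13.83 at the lowest, median and highest tumour, against 11.94, 12.64, 12.42, 12.40 and 12.30 in normals. Its change was 1.25 (SE 0.14), and Heatr1, a factor of pre-ribosomal RNA processing, changed by 1.10 (SE 0.11), both without overlap. Nucleophosmin (Npm1) was 0.83 higher (SE 0.12), fibrillarin (Fbl), the methyltransferase of box C/D small nucleolar RNPs, 0.91 (SE 0.18), and nucleolin (Ncl) 0.64 (SE 0.13), and all 5 of these stayed positive under every scaling.

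Of 13 genes of ribosomal RNA transcription, 10 were called higher (76.9%), beside 32.5% of all genes, and none lower, beside 23.6% (median 0.38). The RNA polymerase I subunit Polr1e was at 0.90 (SE 0.12) and Taf1d at 0.63 (SE 0.16). Under cyclic loess 5 of the 13 were higher and 1 lower, beside 24.5% and 28.5% of all genes. With reference-gene centring 1 was higher and 3 lower, beside 9.04% and 63.3%. Of 25 initiation factors, 11 were higher (44%) and 4 lower (16%) after quantile scaling (median 0.28). Cyclic loess gave 8 higher and 6 lower, and reference-gene centring 0 higher and 11 lower, beside the same shares of all genes. The paralogous helicases opposed each other, with Eif4a1 at 0.68 (SE 0.09) and Eif4a2 at -0.71 (SE 0.15) after quantile scaling. Of 12 genes listed as elongation and release factors, 7 were higher (58.3%) and 1, Eef1a2 (-4.60, SE 0.61), lower (8.33%). Cyclic loess gave 3 higher and 2 lower, and reference-gene centring 0 higher and 5 lower. After quantile scaling the largest rises in this list were those of Eif5a, at 0.77 (SE 0.12), and Eef1e1, at 0.70 (SE 0.13). The translocase Eef2 was at 0.34 (SE 0.13), a call lost without any of tumours 1, 2, 3 and 7 or normals 1, 2 and 3 (0.28 to 0.35), and Eef1a1, on a dim probe, at 0.37 (SE 0.17, adjusted p = 0.0843), was not called.

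Of 16 other genes with TOP mRNAs, 10 were higher (62.5%) and 1 lower (6.25%) after quantile scaling (median 0.32). Cyclic loess gave 4 higher and 2 lower, beside 24.5% and 28.5% of all genes. Reference-gene centring gave 1 higher and 7 lower, beside 9.04% and 63.3%. After quantile scaling the histone chaperone Nap1l1 led at 0.90 (SE 0.14), while vimentin (Vim) was at -0.88 (SE 0.30), a call lost without normal 4 (-0.83) or normal 5 (-0.82). Of 15 regulators of S6 kinase, mTOR and TOP translation, 2 were higher (13.3%) and 4 lower (26.7%), with a median of -0.01. Among all genes 32.5% were higher and 23.6% lower. Eif4ebp1, the inhibitor of cap-dependent initiation that mTOR phosphorylates, was 0.95 higher (SE 0.17), and Myc, which drives transcription of ribosomal genes, 0.45 higher (SE 0.13), or -0.10 under reference-gene centring. Tsc2, which restrains mTOR, was at -0.62 (SE 0.08), and Pdcd4, an inhibitor of Eif4a1 degraded on S6 kinase signalling, at -0.68 (SE 0.26), a call lost on leaving out any array other than tumour 2 or tumour 3 (-0.71 to -0.60). Also called lower were Mtor itself (-0.29, limma adjusted p = 0.0259) and Eif4ebp2 (-0.47, limma adjusted p = 0.0178). On the deposited scale Mtor was not called (-0.24, limma adjusted p = 0.0770), and it was called lower under every other scaling. For Mtor and Eif4ebp2 the effect of leaving out single arrays is not given here. The activity of the pathway was not tested.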

How the data were processed

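The labels put 7 arrays in the tumour group and 5 in the normal group. The authors deposited log2 values for 25697 probes, 1 column per array, each array at a median of 6.56 with unequal quartiles; the base was inferred from the range. BeadStudio and Partek 6.6 were used per the submitters' processing notes, which do not say for which step. Another deposited table, of 24 per-sample columns, was set aside because its column names match no label.

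The deposited log2 values were unlogged, background-corrected with normexp (offset 50), quantile normalised and put back in log2. The background threshold of an array was the mode of its values plus a one-sided 5% tail of the side below the mode. Between 14734 and 15375 probes per array exceeded it, and 15694 probes (61.1%) that did so on at least 5 arrays were kept. The annotation gave 23978 probes 1 symbol and 1719 none. A gene is represented by its brightest probe, which gave 10781 genes. Precision is limited by the number of arrays.

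Tumours were compared with normals by limma 3.58.1 in R 4.3.3 over all probes kept (two-sided, Benjamini-Hochberg, threshold 0.05), after the code was tested on simulated data. Paralog ratios used two-sided exact permutation tests (scipy 1.17.1). Figures used matplotlib 3.10.9 in Python 3.11.15. Promoter windows came from RefSeq on GRCm38.p6. Members, the 16 gene lists and the rule for named genes were chosen with earlier results of these data known. That rule took the 10 largest rises and falls among called core genes, the 4 smallest changes not called, paralogs with partners, the 2 largest rises and falls per supporting list, and a fixed set of core and translation genes; other genes named were chosen after their values were seen. Alternatives were the background correction, 4 other scalings, the probe filter, the mean over probes, array weights, a rank-sum test, a replicate block, leaving out each array, leaving out both arrays with salivary gland signal (tumour 2 and normal 1), and, added later, centring on the family median and leaving out tumours 6 and 7.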

Additional observations from a re-analysis of the deposited data

Results flagged for a closer look

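Single arrays stood apart from the rest of their group in 15 of 118 sets of values in 1 group, which cover 54 named genes, the mean of the core genes and 4 paralog ratios, where chance gives about 1 in 20. The sets share the same arrays and in part the same genes, so their count cannot be judged against that rate. Tumour 6 was the array in 8 of them. It was far below the other tumours for Rpl22 (10.22), Rpl41 (14.87), Rps20 (14.79), Rplp1 (14.85) and Rpl36al (13.98), and far above them for Rps4x (15.17), Taf1d (9.37) and Eef1a1 (7.93). Over all measured core genes tumour 6 was the lowest or highest of the 7 tumours for 33 of 52 (63.5%), lowest for 15 and highest for 18, beside 40.7% over all genes. Tumour 2, which was lowest or highest for 41.0% of all genes, was so for 25% of core genes. Further single arrays were tumour 7 for Rpl5 (14.58, above) and tumour 4 for Rpl3 (14.28, below). Tumour 2 stood apart for Eif6 (13.04, below) and Pdcd4 (8.36, above). Among normals, normal 1 was far below the others for Rpl27 (13.41) and Eif4a1 (13.20), and normal 2 for Eif1b (10.41).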

How the results depend on the processing

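The family-wide rise depended on scaling. Of 52 core genes, 36 were higher (all genes 32.5%), and 16 under 75th-percentile centring (30.1%), 9 under cyclic loess (24.5%) and 3 under reference-gene centring (9.04%). The number lower was 1 (23.6%), and 4 (28.5%) and 35 (63.3%) under the last 2. The core median moved to 0.23 on the deposited scale, 0.17 (75th percentile), -0.0071 (cyclic loess) and -0.32 (reference genes). Centring on the family median puts the core near 0 by construction and gave 9 higher (13.0% of probes), 13 lower (49.7%) and a median of -0.042. Of the supporting genes, 14 were higher (all genes 9.04%) and 43 lower (63.3%) under reference-gene centring. On the deposited scale 6 were lower (21.9%), as with the rank-sum test, whose share of all genes is not given here. For each setting below, a named gene was counted only if called after quantile scaling or in that setting itself. Signs turned under cyclic loess for Rpl5 (-0.054), Rpl39 (-0.15), Rps27 (-0.13) and Rps4x (-0.028). Under reference-gene centring, a common shift of all genes, they turned for Rpl27 (-0.036), Rpl29 (-0.045), Rps26 (-0.15), Rps13 (-0.17), Rpl12 (-0.17), Rps20 (-0.47), Rpl5 (-0.35), Rpsa (-0.47), Rpl3 (-0.23), Rpl22l1 (-0.44), Rpl10 (-0.27), Rpl36al (-0.14), Rpl36a (-0.17), Rpl39 (-0.45), Rps27l (-0.39), Rps27 (-0.43), Rps4x (-0.33), Fau (-0.10), Myc (-0.10) and Eef2 (-0.13). Against the family median they turned for Rpl10 (-0.023), Rpl5 (-0.046), Rps4x (-0.076), Rps27 (-0.13), Rpl39 (-0.23), Rpsa (-0.27) and Rps20 (-0.29), and with the mean over probes for Rpl23 (0.16) and Rps24 (0.51). Replicate numbers did not pair the arrays: same-numbered arrays correlated at -0.37 to 0.08 and none was closest to its own number. With the replicate block, on replicates 1 to 5 alone, the shift was -4.90 for Rpl3l (exact adjusted p = 0.125) and 0.33 for Rpl22l1 (0.125), where 5 pairs allow no p under 0.0625 before adjustment; without the block on those arrays Rpl22l1 had 0.33 (0.0794). With an offset of 16 it had 0.53 (0.0657). Leaving out each array gave 30 to 35 core genes higher, 1 lower in every case, a core median of 0.23 to 0.32 (lowest without normal 1), 67 to 79 supporting genes higher and 6 to 10 lower (6 without normal 1 or normal 5). Shares of all genes called in these refits are not given here, so the counts have no background beside them. The ratio shifts on leaving out each array were -6.17 to -5.22 for Rpl3l, 0.38 to 0.61 for Rpl22l1, 0.02 to 0.15 for Rpl36al and -0.07 to 0.07 for Rps27l. The call of Rps4x was lost without normal 1 (0.20), and that of Eif1b (-0.48) without any of tumours 1, 4, 5 and 6 or normals 1, 3, 4 and 5 (-0.47 to -0.38). Apart from the construction of each setting, the cause was not tested. Dim probes (Rpl22l1, Rpl21, Rps15a, Rpsa) lie near background and bound what their changes can show.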
